A study of Mus musculus with 12 samples.

Results

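The nuclear genome encodes most protein subunits of the mitochondrial respiratory chain, and their mRNAs were compared here between oligodendrocytes (OLs) treated against the transcription factor Egr2 and control OLs. Members were the entries of the deposited count table whose symbols name a numbered Ndufa, Ndufb, Ndufc, Ndufs or Ndufv gene, one of the genes Sdha to Sdhd, a Uqcr gene, a Cox4 to Cox8 gene or an Atp5 gene, without pseudogenes written with "-ps". This gave 90 of the 56860 named genes, and 82 of them were abundant enough to be tested among 16600 tested genes. They comprise 42 genes of complex I, 4 of complex II, 8 of complex III, 19 of complex IV and 17 of complex V. The symbols also hold genes annotated as processed pseudogenes (Ndufa11b, Ndufb4c, Ndufs6b and Cox6c2), and Ndufa4 was kept with complex I by its name although its protein is known as a complex IV subunit.

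Primary OLs came from C57BL/6J mice. The study's methods describe cortex from pups of postnatal day 6 to 7, selection with antibody-coated beads for the OL surface antigen O4, expansion with PDGF-AA and differentiation with triiodothyronine, CNTF and insulin, while the labels give the tissue as medial prefrontal cortex. The agent against Egr2 was given to the siEgr2 group and a scrambled control to the siNC group. Both groups were collected for RNA-seq after 48 h, with 6 libraries each. The methods call the agent both an siRNA and an interference plasmid. Neither labels nor methods say whether the libraries of a group are separate cultures or animals, so the p-values measure the spread between these libraries, which may be technical.

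Complex I oxidizes NADH and complex II oxidizes succinate, a step shared with the tricarboxylic acid cycle. Both pass electrons through ubiquinone to complex III, cytochrome c and complex IV, where oxygen is reduced, and complex V makes ATP from the resulting proton gradient. Complexes I, III, IV and V combine nuclear subunits with others encoded in mitochondrial DNA, whereas complex II is wholly nuclear. Differentiating OLs use ATP for membrane synthesis, and myelinating OLs are known to rely on both glycolysis and respiration.

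The libraries of the 2 groups differed in depth and in ribosomal RNA. Total counts were 28682946 to 39383014 in siNC and 8034251 to 16683677 in siEgr2, and the 18S gene Rn18s-rs5 took 0.142% to 1.05% and 10.5% to 16.5% of them. Depth, 18S share and treatment cannot be told apart in this design. When all libraries were thinned to the smallest total, 5 subunit genes fell and 1 rose at the adjusted p (edgeR). The same numbers held when structural RNA genes were left out. Beyond these alternatives, the part of depth and 18S share in the results was not tested. The targeted gene Egr2 had a mean of 5.35 ± 1.27 CPM (library-size normalized counts, scaled with TMM factors) in siNC and 3.77 ± 1.01 in siEgr2 (SD, n = 6), with overlapping ranges and a log2 fold change of -0.51 (SE 0.21) that did not pass the test (adjusted p = 0.0981, edgeR). The siEgr2 group is therefore named by its label. Summed over 9 oligodendrocyte markers such as Mbp, the level was 8221 to 9391 CPM in siNC and 7734 to 8084 CPM in siEgr2, and 3 of the 9 fell. The 6 astrocyte markers, led by Gfap at 4777 ± 205 CPM in siNC, summed to 7295 to 7968 CPM and 4604 to 5236 CPM, and 5 fell. The 4 precursor markers, Pdgfra among them, summed to 2467 to 2670 CPM and 2961 to 3188 CPM, and 3 rose. Microglial (2.61 to 4.83 and 1.95 to 5.63 CPM), endothelial (1.45 to 2.35 and 0.523 to 1.79 CPM) and neuronal markers (25.2 to 31.1 and 25.9 to 31.0 CPM) were low, and fibroblast or pericyte markers summed to 358 to 606 and 360 to 435 CPM. Of these lists, 2 of 4 fibroblast or pericyte markers fell, the 1 tested endothelial marker (Flt1) fell at -1.35, 1 of 4 neuronal markers rose and 1 fell, and 0 of 3 tested microglial markers passed the adjusted p (edgeR). Only 1 fibroblast or pericyte marker fell with limma-voom, with a replicate block or without siNC 5, siNC 6 or siEgr2 1, 2, 4 or 6. Without siNC 3, siNC 6, siEgr2 4 or siEgr2 6, 0 neuronal markers rose. Flt1 did not pass when libraries were thinned to the smallest total. With scaling by totals alone, all 9 oligodendrocyte and 6 astrocyte markers and 3 of the fibroblast or pericyte markers fell, while 2 precursor markers rose and 1 fell. In such bulk samples, fewer cells of a type and less RNA per cell cannot be told apart, and the part of this shift in the results below was not tested.

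No subunit gene changed by more than 0.5 on the log2 scale at an adjusted p under 0.05. With this rule, 7.72% of all tested genes were called, 2.63% higher and 5.08% lower in siEgr2, against 0 of 82 subunit genes in either direction. With the adjusted p alone, 1 subunit gene rose and 6 fell, or 8.54% of the 82, where 8.57% of all genes rose, 11.3% fell and 19.9% did either. At an unadjusted p under 0.05 there were 19 subunit genes (23.2%) against 32% of all genes. Among the 10881 genes with mean levels in the range that holds the middle 90% of the tested members, 22.8% passed the adjusted p, against 4 of the 72 members in that range.

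The subunit genes lay close to 0 change. Their median log2 fold change was -0.041, beside 0.0046 for all genes, with 51 genes below and 31 above 0. This median was -0.023 without siNC 4 or without siNC 6, -0.062 without siEgr2 1, -0.019 with thinning to the smallest total, -0.088 with no filter on low counts and -0.090 with the length and GC correction. The extremes were -0.36 for Ndufs6b, which had 3 to 13 counts in the siEgr2 libraries, and 0.36 for Cox4i1, and neither passed the test. The median absolute log2 fold change was 0.093 for the subunit genes and 0.169 for all genes. For 74 of the 82 genes (90.2%, against 53.6% of all genes) the 95% interval lay within 0.5 of 0 in both directions. The exceptions were Ndufa11, Ndufs6b, Cox4i1, Cox6b2, Cox6c2, Cox7a1, Cox7a2l and Atp5g1. An interval within 0.2 of 0, held for 25 genes (30.5%, against 13.9% of all genes), and changes beyond that size were within the interval for the rest.

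**Figure D1:**
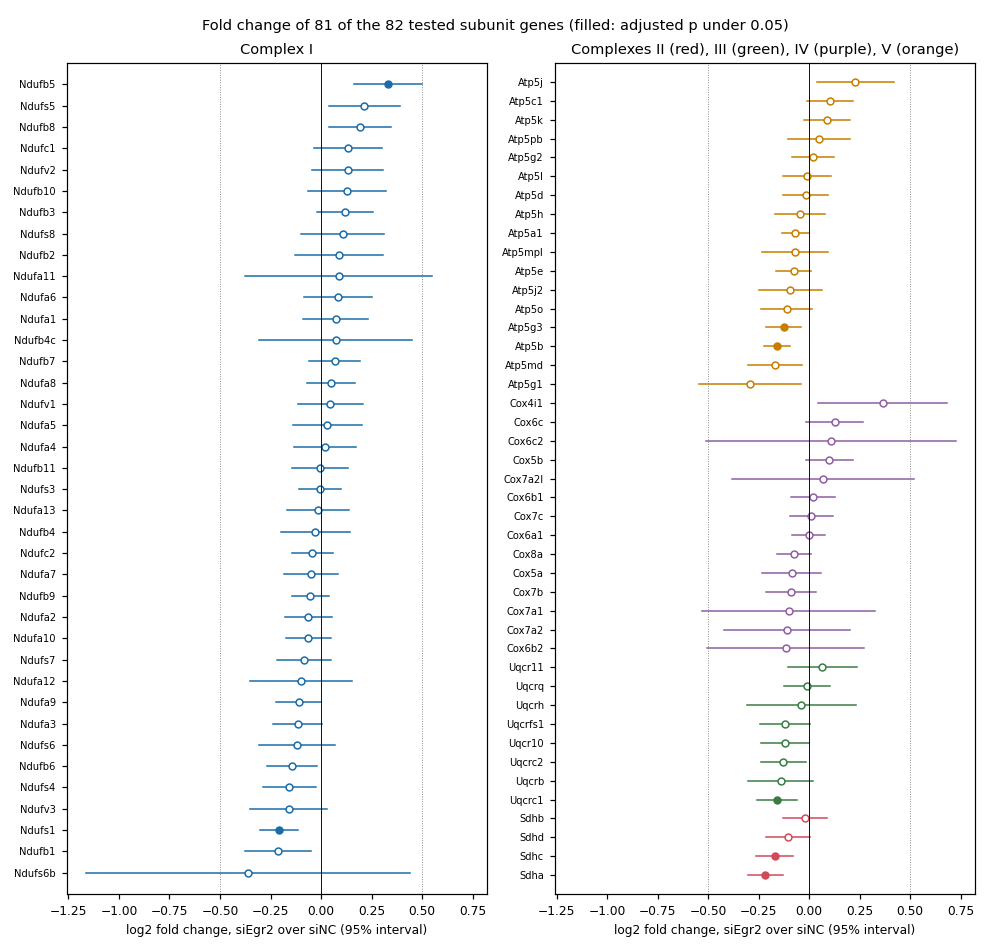
Log2 fold change (siEgr2 over siNC, x axis) with its 95% interval for 81 of the 82 tested subunit genes, with complex I on the left and complexes II to V in colors on the right. Filled points mark the 7 genes with an adjusted p under 0.05, and dotted lines mark a change of 0.5, which no filled point reaches.

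Summed over the 82 genes, the subunit mRNAs took 8615 ± 255 CPM in siNC and 8353 ± 265 CPM in siEgr2 (range 8273 to 8854 and 8048 to 8645). These ranges overlapped. As a share of all deposited counts, before scaling, the 90 members took 0.888% to 0.943% in siNC and 0.731% to 0.824% in siEgr2, without overlap. These totals include the 18S gene, at 0.142% to 1.05% in siNC and 10.5% to 16.5% in siEgr2, which leaves less of them for other genes in siEgr2. The scale therefore sets the sign of many small differences. When libraries were scaled by their total counts alone, the median of all genes moved from 0.0046 to -0.18, and 46 of the 82 subunit genes (56.1%) fell against 32.6% of all genes.

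The count of lower subunit genes also depended on other choices. It was 13 of 86 (15.1%, against 7.58% of all genes) with no filter on low counts, and 15 of 79 (19.0%, against 11.8%) once the trend of each library with transcript length and GC content was removed. In the main comparison the share that fell, 7.32%, was below the 11.3% of all genes, and in these 3 alternatives it was above the share of all genes. Genes that fell with the length and GC correction but not in the main comparison included Atp5e, Cox7c, Uqcrb, Ndufs4 and Cox8a.

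In complex II, which carries out the succinate dehydrogenase step, 2 of 4 genes fell and none rose, where 11.3% of all genes fell. Sdha encodes its flavoprotein, which binds succinate, and spans chromosome 13, 74322254 to 74350280 (all gene positions are on GRCm38). Its level was lowest at 304, median 323 and highest at 341 CPM in siNC, and 257, 280 and 291 CPM in siEgr2. Every siEgr2 library was below every siNC library. The mean fell by 14.0%, from 324 ± 15.7 to 278 ± 12.7 CPM (log2 fold change -0.22, SE 0.041, adjusted p = 0.00109, edgeR), and each siEgr2 library held at least 2264 counts of it. An exact two-sided permutation test over the 924 ways to divide the 12 libraries gave p = 0.00216 for Sdha, the smallest this design allows. This p is unadjusted, and complete separation of the groups always gives it, so it is no separate check. Of the 16600 tested genes, 11.2% likewise did not overlap between the groups.

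Sdhc, a membrane anchor of the complex that takes part in ubiquinone binding (chromosome 1, 171127165 to 171150603), had 135, 142 and 156 CPM as lowest, median and highest value in siNC and 124, 127 and 132 CPM in siEgr2. The groups were again separate. Sdhc fell by 11.1% (log2 fold change -0.17, SE 0.043, adjusted p = 0.0101), and lost this call when all libraries were thinned to the smallest total (adjusted p = 0.0542). The other anchor, Sdhd, had 80.0 to 94.5 CPM in siNC and 75.7 to 86.0 CPM in siEgr2 (log2 fold change -0.11, adjusted p = 0.168), with overlap. The iron-sulfur subunit Sdhb had 106 ± 3.38 and 104 ± 8.19 CPM and a log2 fold change of -0.021 with a 95% interval from -0.13 to 0.088. All 4 genes were below 0, with a median of -0.14. Together they summed to 660 ± 31.1 CPM in siNC and 591 ± 16.8 CPM in siEgr2, with ranges of 625 to 703 and 562 to 608 CPM that did not overlap. Sdha and Sdhc, which were separate by themselves, hold most of this sum, whereas Sdhb and Sdhd each overlapped.

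**Figure D2:**
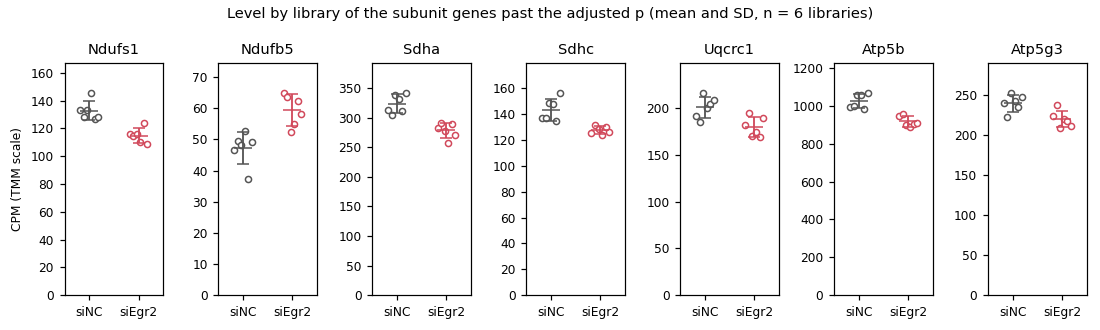
Level in CPM on the TMM scale (y axis, from 0) of the 7 subunit genes past the adjusted p in each siNC (grey) and siEgr2 (red) library, with the mean and SD of 6 libraries. Sdha, Sdhc, Ndufs1 and Atp5b do not overlap between groups, and Ndufb5 is the gene that is higher in siEgr2.

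In complex I, 39 of 42 genes were tested, 1 rose, 1 fell and 37 did not pass, where 8.57% of all genes rose and 11.3% fell. The median log2 fold change was -0.0048, with 21 genes below and 18 above 0. The gene that fell, Ndufs1, encodes the largest subunit of the complex, which holds iron-sulfur clusters of the electron path (chromosome 1, 63143596 to 63176833). It had 127, 131 and 145 CPM as lowest, median and highest value in siNC and 109, 115 and 124 CPM in siEgr2. The groups did not overlap, and Ndufs1 fell by 13.5% (log2 fold change -0.21, SE 0.045, adjusted p = 0.00303).

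The gene that rose, Ndufb5, encodes an accessory subunit of the membrane arm (chromosome 3, 32736990 to 32751566). It had 37.2, 48.7 and 52.5 CPM in siNC and 52.3, 60.4 and 64.8 CPM in siEgr2 as lowest, median and highest value. The lowest siEgr2 library lay just below the highest siNC library. The mean rose from 47.2 ± 5.24 to 59.4 ± 5.06 CPM, or by 25.8% (log2 fold change 0.33, SE 0.079, adjusted p = 0.00700), and the call was lost when libraries were scaled by their totals alone (log2 fold change 0.15, adjusted p = 0.171).

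The other core subunits of complex I described here, those conserved from bacteria, did not pass. The quinone-site subunit Ndufs7 had a log2 fold change of -0.084, and Ndufs3 and Ndufs8 had -0.0048 and 0.11. The subunits that take electrons from NADH, Ndufv1 and Ndufv2, had 0.046 and 0.13. The core values therefore lay on both sides of 0. Among the accessory genes, chosen after their values were seen, Ndufs5 (0.21), Ndufb8 (0.19) and Ndufb1 (-0.21) had the next largest differences among genes with more than a few counts, at adjusted p values of 0.0829, 0.0740 and 0.0670. Ndufs5 and Ndufb8 passed without siEgr2 4 (adjusted p = 0.0478 and 0.0445), Ndufs5 also without siEgr2 3 (adjusted p = 0.0347), and Ndufb1 without siEgr2 2 (adjusted p = 0.0294), with no filter on low counts (-0.26, adjusted p = 0.0328) and with scaling by totals alone (-0.39, adjusted p = 0.00143). The acyl carrier protein Ndufab1, which the symbol rule leaves out, had -0.028.

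In complex III, 1 of 8 tested genes fell, where 11.3% of all genes fell, and 7 were below 0, with a median of -0.12. Uqcrc1, a core protein on the matrix side (chromosome 9, 108936633 to 108949623), had 186, 202 and 216 CPM in siNC and 169, 178 and 195 CPM in siEgr2 as lowest, median and highest value. These ranges overlapped. Its mean fell by 10.4%, from 201 ± 11.2 to 180 ± 10.6 CPM (log2 fold change -0.16, SE 0.047, adjusted p = 0.0261). This call was lost in several alternatives. Without siNC 3, 5 or 6 or siEgr2 3 or 5, the adjusted p of Uqcrc1 was 0.0520 to 0.0672, with the length and GC correction it was 0.0598 and with the replicate block 0.0686.

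The partner core protein Uqcrc2 had a log2 fold change of -0.13 (adjusted p = 0.105), the Rieske iron-sulfur protein Uqcrfs1 -0.12 and the ubiquinone-binding subunit Uqcrb -0.14. None of these passed in the main comparison. Uqcrc2 passed without siEgr2 1 (-0.16, adjusted p = 0.0352) and with no filter on low counts (-0.17, adjusted p = 0.0435). Uqcrb passed without siEgr2 2 (-0.21, adjusted p = 0.0289) and with the length and GC correction (-0.31, adjusted p = 0.00316). With scaling by totals alone, Uqcrc2, Uqcrfs1 and Uqcrb all passed, at -0.31, -0.30 and -0.32. Cytochrome c1 (Cyc1, -0.065) and cytochrome c (Cycs, -0.019), which lie outside the symbol rule, did not pass.

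In complex IV, 14 of 19 genes were tested and none passed the adjusted p (edgeR), with a median of 0.0048 and 7 genes on each side of 0. Cox4i1, an early assembling subunit of the complex, had the largest value. It had 138, 176 and 252 CPM in siNC and 188, 238 and 271 CPM in siEgr2 as lowest, median and highest value, with overlap. The means were 183 ± 41.7 and 235 ± 28.9 CPM (log2 fold change 0.36, SE 0.14, adjusted p = 0.106). Without siNC 3, its highest control library, Cox4i1 passed at 0.48 (adjusted p = 0.0137), DESeq2 gave 0.37 (adjusted p = 0.0226) and the replicate block 0.38 (adjusted p = 0.0143). The other structural subunits bound to the catalytic core, Cox5a and Cox5b, had -0.086 and 0.10. Cox6a1 was the most precise of the complex, at 224 ± 12 and 224 ± 5.0 CPM with a 95% interval from -0.083 to 0.081.

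All 17 genes of complex V were tested, 2 fell and 15 did not pass, with a median of -0.068, where 11.3% of all genes fell. Atp5b, the catalytic beta subunit of the ATP synthase head (chromosome 10, 128083273 to 128090391), had the highest level per transcript length of all members. It had 982, 1028 and 1067 CPM in siNC and 891, 909 and 959 CPM in siEgr2 as lowest, median and highest value. The groups did not overlap, and the mean fell by 10.5%, from 1027 ± 37.8 to 919 ± 27.8 CPM (log2 fold change -0.16, SE 0.031, adjusted p = 0.00144).

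Atp5g3, a gene for subunit c of the rotating membrane ring (chromosome 2, 73908447 to 73911326), had 222 to 252 CPM in siNC and 209 to 237 CPM in siEgr2, with medians of 241 and 218 CPM. The ranges overlapped and the mean fell by 8.35% (log2 fold change -0.13, SE 0.040, adjusted p = 0.0377). This call was kept in the fewest alternatives of the 7. The adjusted p of Atp5g3 was 0.0516 to 0.0915 when any of 9 libraries was left out (siNC 1, 3, 4, 5 or 6, or siEgr2 3, 4, 5 or 6), 0.0501 when structural RNA genes were left out and 0.105 with the replicate block.

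The alpha subunit Atp5a1, the partner of Atp5b in the head, had -0.068 (747 ± 27.0 and 713 ± 22.3 CPM, adjusted p = 0.150). Atp5a1 passed with no filter on low counts (-0.11, adjusted p = 0.0361) and with scaling by totals alone (-0.25, adjusted p = 8.4e-05). The central stalk subunit Atp5c1 had 0.11 and the peripheral stalk subunit Atp5o had -0.11. Neither passed. Atp5g1, another gene for subunit c, had 70.4 ± 7.01 and 57.6 ± 12.3 CPM (log2 fold change -0.29, SE 0.12, adjusted p = 0.0967), and siEgr2 5 at 79.9 CPM stood far above the other siEgr2 libraries, which lay between 47.1 and 63.1 CPM. Without it, Atp5g1 passed at -0.41 (adjusted p = 0.00309), and with all libraries it passed with limma-voom (-0.34, adjusted p = 0.0325), the replicate block (-0.31, adjusted p = 0.0336), the first residual component as a covariate (-0.31, adjusted p = 0.0158), the length and GC correction (-0.39, adjusted p = 0.0230) and scaling by totals alone (-0.47, adjusted p = 0.00963). The coupling factor Atp5j, a part of the stalk, had 0.23 (adjusted p = 0.0907) and passed without siEgr2 2 at 0.30 (adjusted p = 0.00452) and without siNC 1 at 0.27 (adjusted p = 0.0497). The inhibitor of the enzyme, Atpif1, is no member by symbol. It rose from 69.4 ± 3.59 to 80.6 ± 6.00 CPM (log2 fold change 0.22, SE 0.056, adjusted p = 0.0114).

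Over the 5 complexes, 4 subunit genes (Sdha, Sdhc, Ndufs1 and Atp5b) were lower in every siEgr2 library than in every siNC library and 0 were higher. This is 4.88% of the 82, where 11.2% of all tested genes did not overlap, 7% lower and 4.15% higher. When the median difference over the subunits was taken in each library, complex II ranged from -0.076 to 0.10 in siNC and from -0.17 to -0.096 in siEgr2. Sdha and Sdhc are among the 4 genes of that median. The groups overlapped in complexes I, III, IV and V, where the siEgr2 means were -0.019, -0.10, -0.00086 and -0.046.

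**Figure D3:**
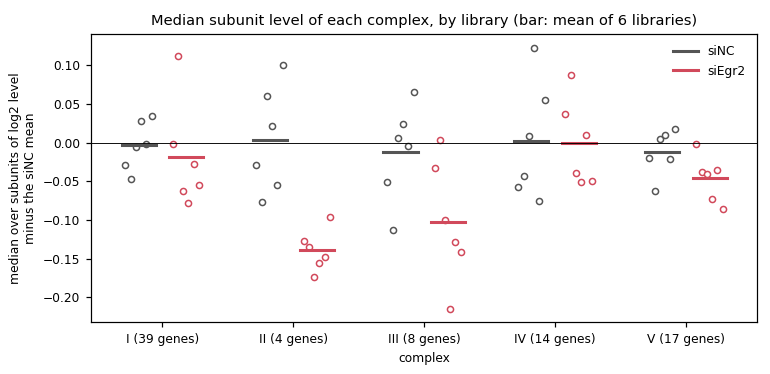
Median over the subunits of each complex of log2 level minus the siNC mean of that gene (y axis), for each library (points) in siNC (grey) and siEgr2 (red), with the mean of 6 libraries as a bar. The 6 siEgr2 libraries lie below the 6 siNC libraries in complex II (4 genes), and the groups overlap in the other complexes.

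The spread between libraries differed widely among the subunit genes. Among genes whose mean log2 CPM reached 4, the median SD within groups was 0.105 on the log2 scale for 77 members and 0.121 for 9066 genes, and 2 members (2.60%) against 6.92% of all such genes exceeded 0.3. The pair was Ndufa11 (SD 0.41, counting alone 0.066) and Cox7a2l (SD 0.37, counting alone 0.039). Cox7a2l, a factor in the joining of complexes III and IV, had 56.1, 94.8, 62.7, 107, 63.2 and 95.7 CPM in siNC 1 to 6, and 60.4, 60.2, 99.0, 93.2, 94.1 and 97.0 CPM in siEgr2 1 to 6. In both groups some libraries lay near 60 and others near 95, with none between. Ndufa11, a membrane subunit of complex I, ranged from 23.4 to 32.5 CPM in siNC and from 14.9 to 40.3 CPM in siEgr2. Cox7a2 (SD 0.27), Cox4i1 (0.26) and Uqcrh (0.23) followed. How reads of near-identical copies were assigned is not given in the sources used here, and its part in this spread was not tested.

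**Figure D4:**
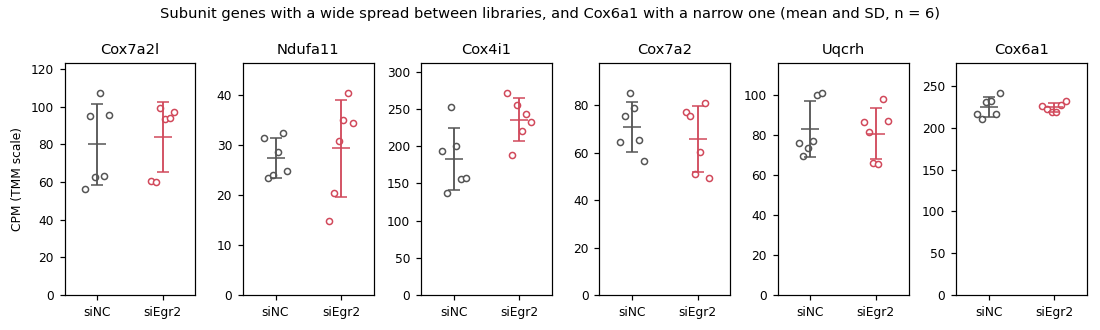
Level in CPM on the TMM scale (y axis, from 0) in each siNC (grey) and siEgr2 (red) library, with the mean and SD of 6 libraries, for the 5 subunit genes named for their wide spread and for Cox6a1. Cox7a2l splits into libraries near 60 and near 95 in both groups, while Cox6a1 stays between 210 and 241 CPM.

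Several subunits exist as a common form and a form known from other tissues or states, and the ratio of such a pair within a library does not depend on scaling. The 8 members too low to test include such forms: the hypoxia-linked Ndufa4l2 and Cox4i2 had at most 9 and 31 counts in any library, the muscle forms Cox6a2 and Cox8b at most 10 and 2, and Cox7b2, Cox8c, Ndufa11b and Ndufb11b had 0 counts in all 12 libraries. At 0 counts, up to 3 counts per library remain possible from counting error alone. Of 9 pairs, 5 had enough counts for an exact two-sided permutation test. Cox6b2 stood at 3.63% of Cox6b1 in siNC and 3.19% in siEgr2, and Cox7a1 at 4.02% and 4.18% of Cox7a2. Neither ratio passed, with log2 differences of -0.18 (adjusted p = 0.534, exact permutation test) and 0.058 (adjusted p = 0.764).

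Subunit c is encoded by 3 genes for an identical mature protein. Atp5g2 stood at 54.3% of Atp5g3 in siNC and 60.0% in siEgr2 in counts. On the log2 scale this ratio ranged from -0.96 to -0.78 in siNC and from -0.91 to -0.62 in siEgr2, with overlap, and the difference of 0.14 had p = 0.0238 and an adjusted p of 0.119 over the 5 pairs (exact permutation test). Without siEgr2 4 it was 0.18 with an adjusted p of 0.0216. Atp5g1 stood at 29.3% and 25.9% of Atp5g3 (log2 difference -0.18, adjusted p = 0.465). The ratio of Cox7a2l to Cox7a2 differed by 0.21 (adjusted p = 0.636).

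Per kilobase of transcript, the subunit genes of siNC differed widely in level. The median was 60.3 CPM per kb in complex I (38 genes with a length), 81.5 in complex II, 109 in complex III, 136 in complex IV and 139 in complex V. Atp5b was highest at 536 CPM per kb, followed by Cox6a1 (393), Atp5g3 (335), Cox8a (319) and Atp5a1 (302). In complex I the highest was Ndufa4 with 148 CPM per kb. The lowest were the pseudogene entries Ndufs6b (2.16) and Cox6c2 (5.97), and Cox7a1 (7.32) and Cox6b2 also stood far below the other complex IV genes. These levels use 1 principal transcript per gene and describe siNC only.

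**Figure D5:**
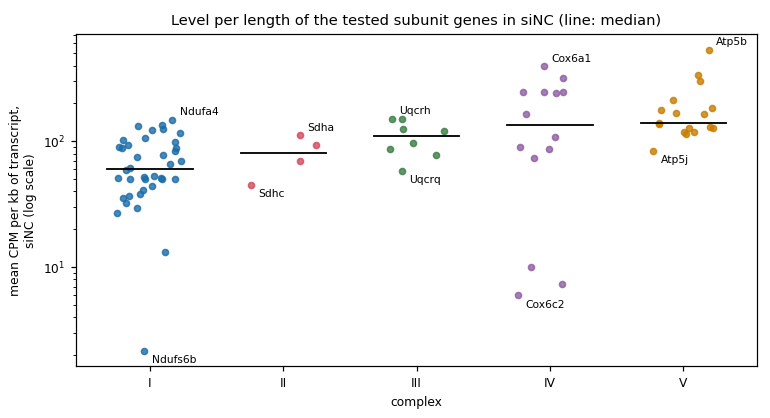
Mean siNC level per kilobase of the principal transcript (y axis, log scale, CPM per kb) for the tested subunit genes of each complex (points), with the median as a line. Complex I has the lowest median (60.3) and complex V the highest (139), and Atp5b is the highest gene.

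Of the 6 subunit genes that fell, 5 had a long transcript. Of 19 subunit genes with a principal transcript over 1200 bp, 5 fell and the median log2 fold change was -0.11, where 12.9% of all 13377 genes of that length fell with a median of -0.0082. Of 24 subunit genes from 700 to 1200 bp, 1 rose and 1 fell with a median of 0.0072, where 7.28% of all 1512 such genes rose, 6.48% fell and the median was 0.042. Of 38 subunit genes under 700 bp, 0 rose and 0 fell with a median of -0.041, where 9.43% of all 1198 genes of that length rose, 2.34% fell and the median was 0.12. Short subunit mRNAs thus lay below other short mRNAs on this scale, and the length classes of all genes differed from each other as well. Across genes, Spearman's rho between log2 fold change and length was -0.20 for 81 members and -0.076 for 16087 genes. These points share libraries and are not independent replicates.

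Some sequence cores were more frequent in the promoters of the subunit genes than in those of all genes. In the RefSeq windows of GRCm38.p6 from 250 bases before to 50 after the start of each gene, 69 of the 90 members had an entry, 67 of them tested. The core of nuclear respiratory factor 1 (NRF1; GCGCA, any base, GCGC, on either strand) was in 17 of the 67 (25.4%) and in 5.19% of 27025 genes. The ETS core bound by GABPA, CCGGAAG, was in 17 (25.4%) against 9.93%, and the YY1 core (AA, any base, ATGGCG) in 10 (14.9%) against 2.76%. The Egr core GCGTGGGCG was in 0 of the 67 windows and in 0.707% of all genes. YY1 cores lay in 7 of 33 complex I windows and 3 of 15 complex V windows and in 0 of the windows of complexes II, III and IV. The median log2 fold change was -0.0011 with and -0.030 without the NRF1 core, -0.010 and -0.036 for the ETS core, and -0.088 and -0.015 for the YY1 core. These are descriptions of letters in a window, not of binding. The 27025 genes include genes that were not tested, whereas the 67 members were all tested. No share among genes of similar level or GC content was computed.

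Of the 7 genes past the adjusted p, 5 had a window, of which 3 held an NRF1 core, 1 a YY1 core and 0 an ETS core. The stretches from 100 bases before to 30 after the start are shown 5′ to 3′ on the gene's strand to set the genes that fell beside the gene that rose. Capitals mark NRF1 cores in Sdha, Uqcrc1 and Atp5g3 and the YY1 core, on the opposite strand, in Atp5b, and Ndufb5 holds none of these cores. Uqcrc1 has a further NRF1 core that begins 30 bases after the start, just past the stretch shown.
Sdha (GRCm38.p6, chr13:74350211-74350340, minus strand): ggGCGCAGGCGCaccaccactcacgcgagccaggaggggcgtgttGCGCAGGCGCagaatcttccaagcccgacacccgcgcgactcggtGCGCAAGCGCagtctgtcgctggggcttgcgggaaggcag
Uqcrc1 (chr9:108936548-108936677, plus strand): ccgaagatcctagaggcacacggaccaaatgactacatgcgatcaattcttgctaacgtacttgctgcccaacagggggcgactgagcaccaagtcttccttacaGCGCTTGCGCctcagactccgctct
Atp5g3 (chr2:73911297-73911426, minus strand): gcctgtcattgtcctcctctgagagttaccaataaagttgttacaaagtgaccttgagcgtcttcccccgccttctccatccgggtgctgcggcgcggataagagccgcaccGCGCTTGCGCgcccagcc
Atp5b (chr10:128083207-128083336, plus strand): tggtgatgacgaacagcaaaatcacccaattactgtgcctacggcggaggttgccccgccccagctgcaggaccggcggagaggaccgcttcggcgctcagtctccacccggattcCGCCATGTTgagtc
Ndufb5 (chr3:32736963-32737092, plus strand): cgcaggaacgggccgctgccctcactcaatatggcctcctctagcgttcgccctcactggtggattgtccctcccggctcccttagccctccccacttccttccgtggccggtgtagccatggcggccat
The 3 NRF1 cores of Sdha begin 98, 55 and 10 bases before the start, that of Atp5g3 12 bases after it, and that of Uqcrc1 5 bases after it.

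The regulators known to act on these genes were also measured. Ppargc1a, the coactivator PGC-1alpha, which is known to raise respiratory gene expression, fell from 23.4 ± 3.09 to 15.1 ± 1.01 CPM without overlap (log2 fold change -0.63, SE 0.094, adjusted p = 0.000170). Nrf1, the gene of nuclear respiratory factor 1, rose from 19.2 ± 1.79 to 26.9 ± 6.95 CPM (0.48, adjusted p = 0.0183) with overlap. Tfb2m, a factor of mitochondrial transcription, fell by 0.42 on the log2 scale (adjusted p = 0.0305). Without siNC 1, 2 or 3 or without siEgr2 4 or 6, Ppargc1a was the 1 regulator that fell. With scaling by totals alone, 0 regulators rose and 5 fell, so that Nrf1 no longer passed. The other 12 of 15 regulators did not pass, among them Gabpa (0.031), Tfam (0.083) and Esrra (-0.088). Of all tested genes, 8.57% rose and 11.3% fell in the main comparison.

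The genes next to the subunits in the same pathway were described by counts. Of the 18 genes of the tricarboxylic acid cycle and pyruvate dehydrogenase, 7 fell, 0 rose and all 18 were below 0, with a median of -0.13, where 11.3% of all genes fell. Among the genes that fell were Ogdh (-0.33) and Idh2 (-0.32), which encode dehydrogenases of the cycle, and the citrate synthase gene Cs (-0.21). This count was 12 without a filter on low counts (7.58% of all genes fell there), 17 with scaling by totals alone (32.6% of all genes), and 4 without siNC 1, 3, 5 or 6 or without siEgr2 4. The 13 subunits encoded in mitochondrial DNA had a median of -0.076 (-0.036 without siNC 1, -0.037 without siNC 2 and -0.041 without siEgr2 6), and 3 fell: mt-Co1 from 11089 ± 303 to 9717 ± 575 CPM (-0.19), mt-Cytb (-0.18) and mt-Nd4l (-0.19). Scaling by totals alone gave 7 that fell (32.6% of all genes) and the length and GC correction 11 (11.8% of all genes), with a median of -0.39.

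Assembly factors, carriers and ribosomal protein genes were counted in the same way. In the main comparison 8.57% of all genes rose and 11.3% fell. Of 18 tested factors of complex I, 4 of complex II and 4 of complex V, 0 passed the adjusted p (edgeR). In complex III 1 of 6 fell (Lyrm7, -0.61), and in complex IV 2 of 26 fell (Coa5, -0.21, and Cox20, -0.35). The widest value of the complex IV list was that of Pet117, at 1.73 with an SE of 1.38 (adjusted p = 0.433), which had 1 to 240 counts in the siNC libraries. Of 19 electron carriers and ubiquinone synthesis genes, Etfdh (-0.21) and Coq8b (-0.26) fell. With a library left out, 0 to 1 genes fell in the complex III list (1 without siNC 3, siEgr2 2 or siEgr2 3, and otherwise 0), 1 to 3 in the complex IV list and 1 to 3 in the carrier list. In the complex IV list 1 gene rose without siNC 1, without siNC 4 or with the length and GC correction. Scaling by totals alone gave 6 that fell in the complex I list, 12 in the complex IV list and 11 in the carrier list, where 32.6% of all genes fell. Of 78 mitochondrial ribosomal protein genes, 2 rose and 2 fell, with a median of -0.023. With a library left out, 1 to 3 of these genes rose and 1 to 3 fell. Their median was -0.0031 without siNC 3 and -0.052 without siEgr2 2. With scaling by totals alone 2 rose and 35 fell (32.6% of all genes fell there), and with all libraries thinned to the smallest total 4 rose and 0 fell. Of 89 cytosolic ribosomal protein genes, 30 rose and 0 fell, with a median of 0.12, where 8.57% of all genes rose and 11.3% fell. With scaling by totals alone 1 rose (3.04% of all genes), 12 fell (32.6% of all genes) and their median was -0.066, where that of all genes was -0.18. A change of scale moves all genes nearly alike, so it could hardly change the place of these genes relative to all genes. With no filter on low counts, 11 of 91 rose, where 4.13% of all genes rose.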

How the data were processed

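RNA-seq of 12 libraries of cultured mouse OLs was analyzed, 6 per group, with groups and replicate numbers taken from the labels. The authors extracted total RNA with TRIzol and deposited raw counts per gene symbol, without normalization, and the labels name the build mm10. The aligner, the counting program, strand handling and any selection of polyadenylated RNA are not given in the sources used here. The table had 1 entry without a name, which was left out.

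Counts were compared in R 4.3.3 with edgeR 4.0.16 (limma 3.58.1): filterByExpr, TMM factors and the robust quasi-likelihood test, without covariates, with Benjamini-Hochberg adjustment over 16600 genes. Calls needed an adjusted p below 0.05 together with a log2 fold change beyond 0.5, the thresholds of the study's methods, applied here in either direction, and "rose", "fell" and "passed" refer to the adjusted p alone. CPM are on the TMM scale. Isoform ratios used counts plus 0.5 and the exact permutation test over 924 divisions. Coordinates and lengths came from GENCODE M21 (88 of the 90 members matched, 81 tested members with a length). The biological coefficient of variation was 0.170. Depth, from 8034251 to 39383014 counts per library, left tested members with 3 or more counts in each siEgr2 library. The 14 pseudogene entries with "-ps" held at most 0.628% as many counts as the members. Within groups no library was a copy of another: the chi-square statistic per gene was 7.09 to 36.7 over 30 pairs. The procedure was tested on simulated data. Values of a few single genes are not reported here, though the counts and medians include them.

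Named genes were the members past the adjusted p whose mean log2 CPM reached 2, core subunits, isoform partners, Cyc1, Ndufab1, Cycs, Atpif1 and Egr2, and others named in the text were chosen after their values were seen. The members, the gene lists and the motifs were chosen with earlier results of these data known. Alternatives were RLE, upper-quartile and library-size scaling, DESeq2 1.42.0, limma-voom, 2 other filters, a replicate block, the first residual component as a covariate, thinning to the smallest total, leaving out structural RNA genes, removing a length and GC trend, a pseudocount of 5 for the ratios, separation of the libraries in place of the fold threshold, and leaving out each library.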

Additional observations from a re-analysis of the deposited data

Results flagged for a closer look

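Within a group of 6 libraries, 6 values of named genes stood apart from the other 5 by Dixon's test, out of 94 groups examined, where chance alone gives about 4.7. In the siNC group these were Ndufs1 in siNC 4, at 145 CPM beside 127 to 134 CPM in the others, Atp5o in siNC 6, at 152 CPM beside 131 to 139 CPM, and Ndufa4 in siNC 4, at 95.5 CPM beside 88.0 to 90.7 CPM. In the siEgr2 group they were Cox6b1 in siEgr2 2, at 170 CPM beside 146 to 154 CPM, Ndufa4 in siEgr2 5, at 118 CPM beside 81.8 to 90.2 CPM, and Atp5j in siEgr2 2, at 58.1 CPM beside 78.4 to 88.2 CPM. Without the library that stood apart, Ndufs1 still fell, and Atp5j passed the adjusted p.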

How the results depend on the processing

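The numbers of subunit genes called at the fold threshold were 0 in both directions under every alternative that kept this threshold, and 4 were lower when separation of the libraries replaced it. The number that rose at the adjusted p alone (1) was 0 with scaling by totals, 2 with DESeq2, 2 with the replicate block and 1 to 3 with a library left out. It was 2 without siNC 1, siNC 3, siEgr2 2 or siEgr2 3, and 3 without siEgr2 4. The number that fell (6) was 46 with scaling by totals, 13 without a filter, 15 with length and GC removed and 4 to 8 with a library left out. Scaling by totals shifted all genes by about -0.18, and gave medians of -0.19, -0.32, -0.30, -0.18 and -0.25 for complexes I to V. Relative to the median of all genes these were -0.0097, -0.14, -0.12, 0.00038 and -0.072, close to the main values. Scaling moves all genes by about the same amount, so this closeness was fixed in advance and is no separate check. The medians of complexes IV and V were -0.12 and -0.11 without a filter and -0.10 for both with length and GC removed. With a library left out, the medians ranged from -0.026 to 0.020 (I), -0.15 to -0.11 (II), -0.14 to -0.089 (III), -0.017 to 0.016 (IV) and -0.078 to -0.026 (V, -0.026 without siNC 4 and -0.031 without siEgr2 6). Egr2 was -0.70 with scaling by totals (adjusted p = 0.0144), and -0.60 to -0.39 with a library left out. The ratio Atp5g2/Atp5g3 ranged from 0.12 to 0.18 (0.18 without siEgr2 4, adjusted p = 0.0216), Atp5g1/Atp5g3 from -0.28 to -0.13, Cox6b2/Cox6b1 from -0.33 to -0.11, Cox7a1/Cox7a2 from -0.032 to 0.17 and Cox7a2l/Cox7a2 from 0.081 to 0.35. Atp5g2 and Cox6b1, near 0 in the main comparison (0.019 and 0.020), were both at -0.16 with scaling by totals, which is about the shift of all genes.

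Same-numbered libraries did not deviate together (correlations of -0.039 to 0.042), so replicate numbers were not taken as pairs. With the replicate block 2 members rose (Ndufb5 and Cox4i1) and 5 fell (Sdha, Sdhc, Ndufs1, Atp5b and Atp5g1), and 1124 instead of 1281 of all genes were called. Sdha, Atp5b and Ndufs1 passed the adjusted p under all 24 alternative fits, Ndufb5 and Sdhc under 23, Uqcrc1 under 17 and Atp5g3 under 13. Members with few counts are measured least precisely in siEgr2, where depth was lower. Unless the construction of an alternative shows it, the cause of a change was not tested.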
